A study of Mus musculus with 13 samples.

Results

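Peaks of 13 CUT&RUN libraries were examined around 3 genes that run excitation and calcium handling in skeletal muscle, Cacna1s, Ryr1 and Atp2a1. The members were taken by position alone, as every peak that overlapped by at least 1 bp one of 3 windows of the GRCm39 mouse genome: chromosome 1, 135930000 to 136098000 (Cacna1s), chromosome 7, 28652000 to 28875000 (Ryr1), and chromosome 7, 125995000 to 126115000 (Atp2a1). Merged over the 12 lists of HA and IgG peaks wherever intervals shared at least 1 bp, these peaks formed 34 regions (11 at Cacna1s, 14 at Ryr1 and 9 at Atp2a1) of 71864 regions in all.

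In skeletal muscle, an action potential spreads along the transverse tubules and is sensed by the L-type calcium channel, whose pore-forming and voltage-sensing subunit is encoded by Cacna1s. That channel opens the ryanodine receptor encoded by Ryr1, which releases calcium from the sarcoplasmic reticulum and so starts contraction. The pump SERCA1, encoded by Atp2a1, returns calcium to the reticulum and lets fast muscle fibres relax. Myf6 (MRF4) belongs to the myogenic basic helix-loop-helix factors, which bind DNA at E-boxes, the motif CANNTG.

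The cells were mouse embryonic fibroblasts that carried Pax7-CreERT2, Rosa26-LSL-tdTomato and CAG-rtTA3, the last a doxycycline-dependent activator. All had received HA-tagged Myf6 by lentivirus behind the doxycycline-responsive TRE and spent 24 h in iMPC medium. Cells of the +Myf6+F/R/C group received doxycycline at 2 µg/mL with F/R/C, that is Forskolin and RepSox at 5 µM each and CHIR99021 at 3 µM, cells of the +Myf6 group received doxycycline alone, and uninduced cells received neither. Each group had 2 libraries with an antibody against HA and 2 with a control IgG, and 1 further library of +Myf6+F/R/C cells profiled H3K27me3, the mark that Polycomb complexes place on silenced chromatin. Doxycycline was given only together with induction, so an effect of the drug and an effect of Myf6 cannot be told apart here. The lists hold no expression, so the fibroblast label was not checked by marker genes.

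The H3K27me3 library is labelled replicate 1, while its library name shares a prefix with replicate 2 of +Myf6+F/R/C. Depth, as mean fragments per 10 kb recovered from the lists, for HA replicates 1 and 2, was 61.9 and 40.9 with +Myf6+F/R/C, 42.4 and 30.6 with +Myf6, and 30.6 and 23.7 without doxycycline. It was 8.25 to 22.7 in the 6 IgG libraries and 54.3 in the H3K27me3 library. Separate cultures are not stated for the replicates, so p-values measure only the spread between these libraries, which may be technical.

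The sequences just upstream of the 3 genes are shown because E-boxes are the motif through which factors of this family bind. They are the 250 bases before each gene's start in RefSeq (build GRCm38.p6), read 5′ to 3′ along the gene, with every CANNTG in capitals.
Cacna1s (chromosome 1, plus strand): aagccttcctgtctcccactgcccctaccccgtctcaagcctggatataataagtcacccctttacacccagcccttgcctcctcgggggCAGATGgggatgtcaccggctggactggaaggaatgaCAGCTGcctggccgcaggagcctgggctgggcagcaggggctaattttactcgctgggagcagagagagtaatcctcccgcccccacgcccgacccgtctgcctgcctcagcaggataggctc
Ryr1 (chromosome 7, minus strand): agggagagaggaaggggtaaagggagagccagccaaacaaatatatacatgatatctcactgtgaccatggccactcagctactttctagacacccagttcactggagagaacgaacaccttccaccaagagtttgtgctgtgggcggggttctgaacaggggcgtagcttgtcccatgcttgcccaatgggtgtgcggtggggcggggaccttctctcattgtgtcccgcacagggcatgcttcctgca
Atp2a1 (chromosome 7, minus strand): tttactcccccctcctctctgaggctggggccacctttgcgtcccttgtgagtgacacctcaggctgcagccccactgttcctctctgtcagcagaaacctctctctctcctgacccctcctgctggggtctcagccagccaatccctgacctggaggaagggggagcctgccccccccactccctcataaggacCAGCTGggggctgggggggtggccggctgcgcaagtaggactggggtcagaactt

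The Cacna1s stretch holds 2 E-boxes, CAGATG beginning 160 bases and CAGCTG beginning 123 bases before the gene's start. The Atp2a1 stretch holds 1, a CAGCTG that begins 55 bases before the start, and the Ryr1 stretch holds 0. Searched on both strands, CANNTG occurs in this stretch of 69.3% of 27025 RefSeq genes with such a sequence, its form CAGCTG in 14.7% and its form CAGGTG in 19.4%. Of 29 other genes of the same pathway, 17 had a sequence, and 15 of these held CANNTG. The form CAGGTG occurred in 5 of the 17 and the form CAGCTG in 7. Among these 7 are Jph2, whose product joins the reticulum to the transverse tubule, Casq1, the calcium buffer of the reticulum, and Orai1, the pore of store-operated calcium entry. A match of letters is no measured site, and no genome of the peaks' build was used here, so no sequence under a peak is shown.

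HA peaks were found at all 3 genes in every induced library and were few or absent in uninduced cells. In the Cacna1s window the +Myf6+F/R/C libraries had 5 and 6 HA peaks, the +Myf6 libraries 6 and 5, and the uninduced libraries 0 and 0 (replicates 1 and 2). In the Ryr1 window the +Myf6+F/R/C libraries had 9 and 5 HA peaks, the +Myf6 libraries 7 and 7, and the uninduced libraries 0 and 1. In the Atp2a1 window the numbers were 7 and 3 with +Myf6+F/R/C, 4 and 3 with +Myf6, and 0 and 1 without doxycycline. The induced and uninduced libraries did not overlap at any of the 3 genes, while the 2 induced groups overlapped at each. The share of the genome with such a separation was not counted, so it is not read as particular to these genes. Over the genome the induced HA lists held 28436 to 38454 peaks, and the uninduced HA lists 2179 and 4230.

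**Figure D1:**
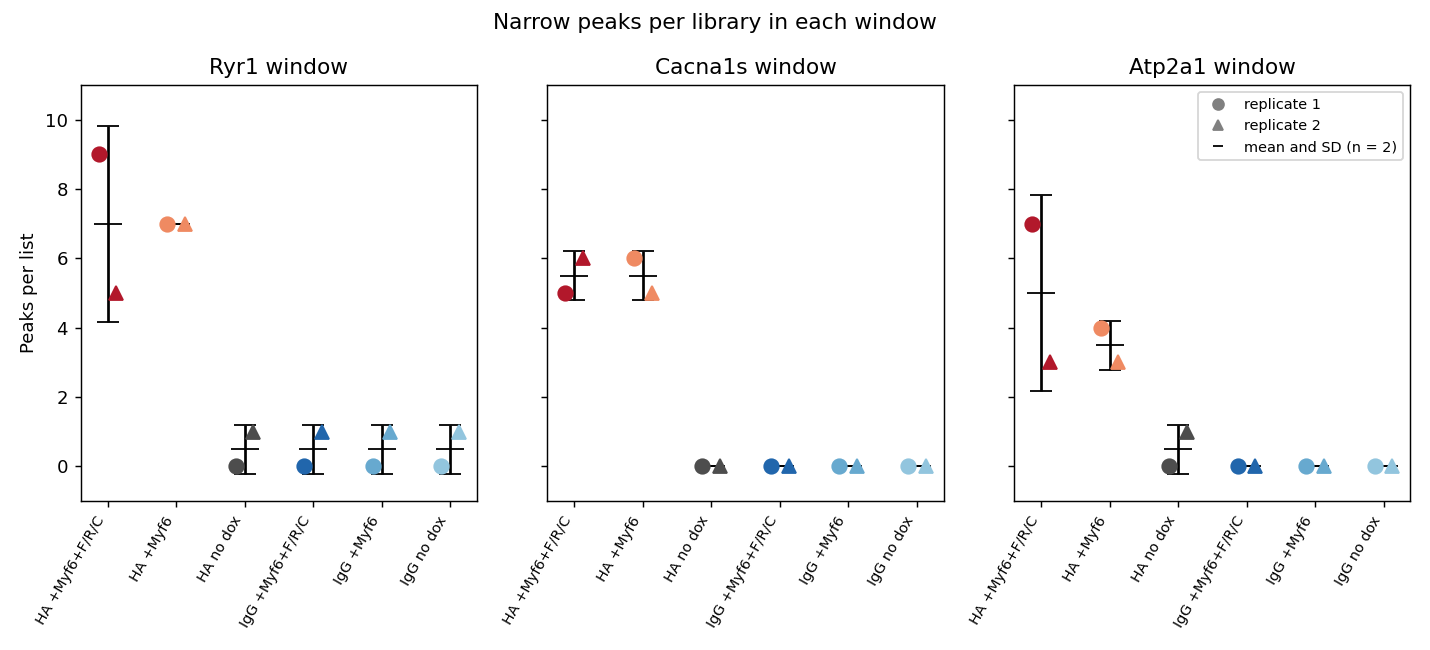
Number of narrow peaks per library (y axis) in the 3 windows, by antibody and treatment; points are libraries, and bars give the mean and SD of 2. Induced HA libraries lie between 3 and 9 peaks, and the uninduced HA and the IgG libraries at 0 or 1.

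IgG peaks were nearly absent. The 6 IgG libraries had 0 peaks in the Cacna1s and Atp2a1 windows, and in the Ryr1 window the 3 libraries of replicate 2 had 1 each. Induced HA libraries averaged 5.5 peaks in the Cacna1s window and IgG libraries of the same cells 0, a difference of 5.5 peaks (n = 4 each). At Ryr1 the means were 7 and 0.5 peaks, a difference of 6.5, and at Atp2a1 they were 4.25 and 0 peaks, a difference of 4.25. For each gene the exact permutation test gave p = 0.0286 (two-sided, the smallest that 4 against 4 allows), with every HA library above every IgG library. In the inner part of each window, without its outer 50 kb on each side, the difference was 1 peak at Cacna1s, 3.25 at Ryr1 and 1.75 at Atp2a1. Adjusted over the 3 windows and all 100 kb bins with a peak in these libraries (17374 features, Benjamini-Hochberg), p was 0.0552 for each of the 3 genes, so none passed 0.05. Every feature at the smallest possible p receives this same adjusted value. It is set by how many features reach that p, so it does not tell these genes from the others. Of the 17374 features, 0 passed the adjusted threshold (percent called 0), and 8985 had an unadjusted p under 0.05 with HA higher (51.7%), so a clear HA excess of this kind was common over the genome. These bins were shorter than the windows. With bins as long as the window, the features with an unadjusted p under 0.05 and HA higher numbered 7169 of 11658 (Cacna1s), 6126 of 9237 (Ryr1) and 8391 of 15191 (Atp2a1). IgG libraries were also shallower than their HA libraries. Thinned to the depth of the IgG library from the same nuclei, the HA lists exceeded IgG by 1.53 peaks at Cacna1s (adjusted p = 0.0617), 2.38 at Ryr1 (adjusted p = 0.177) and 1.28 at Atp2a1 (adjusted p = 0.0617; permutation tests as above).

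Against uninduced cells, the induced libraries had more HA peaks at all 3 genes over the whole windows. At Cacna1s the mean was 5.5 ± 0.707 peaks with +Myf6+F/R/C, 5.5 ± 0.707 with +Myf6 and 0 without doxycycline (SD, n = 2 each). At Ryr1 it was 7 ± 2.83, 7 ± 0 and 0.5 ± 0.707 peaks, and at Atp2a1 5 ± 2.83, 3.5 ± 0.707 and 0.5 ± 0.707 peaks, in the same order of groups. With 2 libraries against 2 the exact permutation p was 0.333 for each gene and for both induced groups against uninduced cells, which is the smallest possible. In the inner part of the Atp2a1 window the +Myf6+F/R/C libraries had 2 and 1 peaks, the +Myf6 libraries 2 and 2, and the uninduced libraries 0 and 1. The +Myf6+F/R/C and uninduced libraries thus overlapped there (difference 1 peak, exact permutation p = 0.667). Without +Myf6+F/R/C replicate 1, the difference from uninduced cells over the whole Atp2a1 window was 2.5 peaks in place of 4.5. The uninduced libraries were shallower, and with the induced lists thinned to their depth the differences from uninduced cells were 2.35 (Cacna1s), 4.55 (Ryr1) and 2.13 peaks (Atp2a1) for +Myf6+F/R/C, and 4.1, 5.73 and 2.4 for +Myf6. Between +Myf6+F/R/C and +Myf6 the difference was 0 peaks at Cacna1s and at Ryr1 and 1.5 peaks at Atp2a1 (exact permutation p = 1 for each), all within the spread between replicates. The difference at Atp2a1 rested on replicate 1 of +Myf6+F/R/C, the deepest HA library, and was -0.5 peaks without it.

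Stretches of the genome as long as each window held fewer peaks at the median. These were all consecutive stretches with at least 1 peak in any of the 13 lists, not chosen for genes. A peak was counted there by its summit, but in the windows by overlap. The rank of the windows among the stretches was not computed. Over 12229 stretches as long as the Cacna1s window, the median of the mean count per library was 2.5 HA peaks with +Myf6+F/R/C and 2 with +Myf6. Over 9650 stretches as long as the Ryr1 window it was 3 and 2.5, and over 16031 as long as the Atp2a1 window 1.5 and 1.5. The 67 induced HA peaks of the 3 windows were of ordinary strength. Their median fold enrichment over the local background, as the authors deposited it, was 5.06, against 5.14 over all 134104 induced HA peaks, and their median summit pileup was 11 fragments in both sets. Of the 67, 28 reached a −log10 q of 5 (41.8%, against 44.4% of all induced HA peaks) and 9 reached 10 (13.4%, against 10.9%).

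Regions in all 4 induced HA lists made up about the share seen over the genome. Of the 33 regions with an induced HA peak, 5 were in all 4 induced HA lists (15.2%, against 15.3% of such regions in the whole genome), 6 in 3 lists, 7 in 2 and 15 in a single list. A control peak met 3 of the 33 (9.09%, against 7.33% in the whole genome), 2 at Ryr1 and 1 at Atp2a1. A region was counted as a site of a treatment when both of its HA lists and none of the 8 control lists (2 uninduced HA and 6 IgG) had a peak there. There were 8 sites of +Myf6+F/R/C, 3 at Cacna1s, 3 at Ryr1 and 2 at Atp2a1, and 9 sites of +Myf6, 3 at Cacna1s, 5 at Ryr1 and 1 at Atp2a1, with 4 in common. This was 23.5% of the 34 regions for +Myf6+F/R/C and 26.5% for +Myf6, while over all regions the shares were 21% and 17.5%. At least 1 site of +Myf6+F/R/C lay in 58.8, 63.8 and 53% of stretches as long as the Cacna1s, Ryr1 and Atp2a1 windows, and at least 1 site of +Myf6 in 53, 57.9 and 47.3%.

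**Figure D2:**
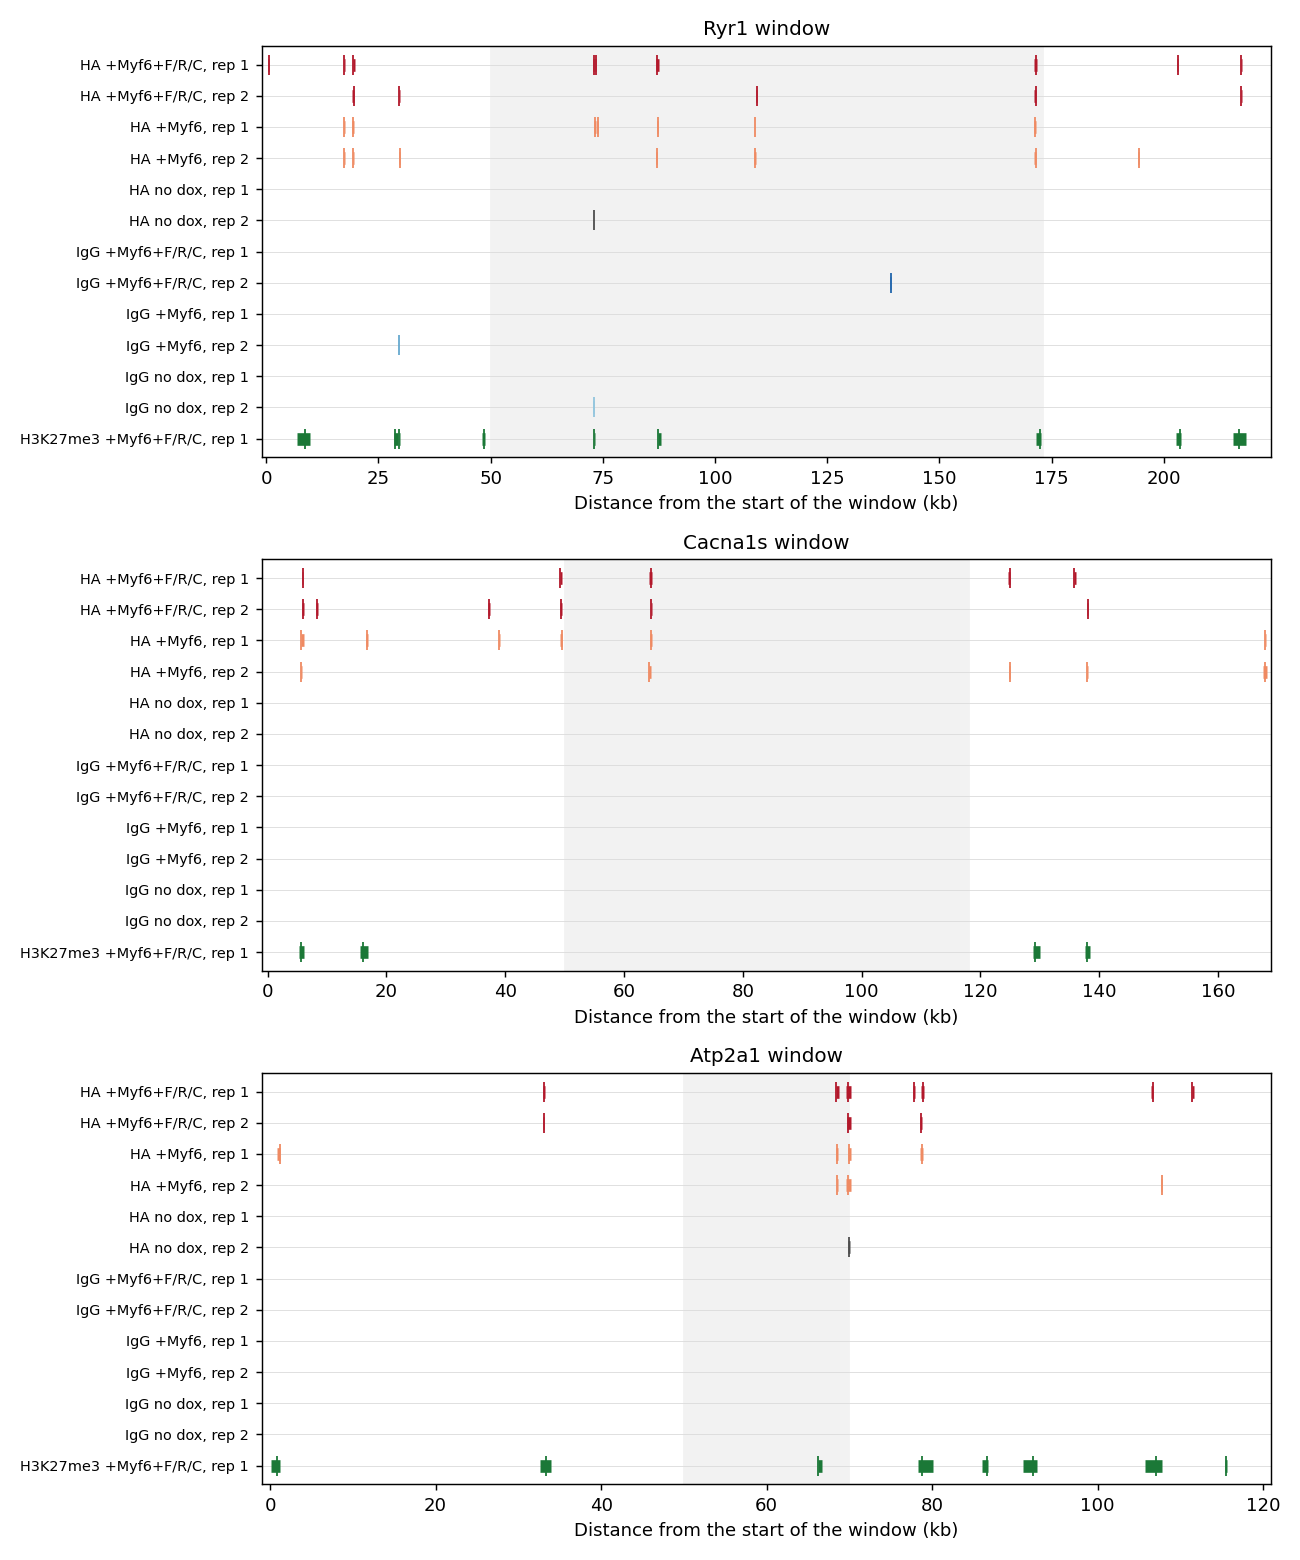
Peaks of the 13 lists along the 3 windows, with the distance from the start of the window in kb on the x axis and a row for each library; blocks are peaks to scale and ticks are summits. Grey marks the window without its outer 50 kb on each side, and most induced HA peaks of Cacna1s lie outside it.

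The windows also cover neighbouring genes. Less 50 kb on each side, the windows measure 68 kb for Cacna1s, 123 kb for Ryr1 and 20 kb for Atp2a1, and the RefSeq genes are shorter than these inner parts by 0.983, 1.16 and 2.75 kb. If the windows were set as gene plus flanks, which these lengths fit, the gene's start lies within about that distance of 1 edge of the inner part. No annotation of GRCm39 was used here, so exons, introns and promoters are not assigned. In RefSeq order the nearest coding neighbours are Ascl5 and Kif21b for Cacna1s, Map4k1 and Rasgrp4 for Ryr1, and Rabep2 and Sh2b1 for Atp2a1. Regions with an induced HA peak that touched the inner part numbered 1 of 11 at Cacna1s, 6 of 13 at Ryr1 and 2 of 9 at Atp2a1. Those 2 regions of Atp2a1 lay across the edge on the side of the gene's start or less than 2.75 kb inside it. Neither can be placed in the gene or before its start, so the inner part is a poor stand-in for the gene there.

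At Cacna1s, the voltage sensor, the region in the inner part lay at 135994179 to 135994703 on chromosome 1 and was a site of both treatments. Its folds were 8.35 and 4.11 in the +Myf6+F/R/C libraries and 9.44 and 4.02 in the +Myf6 libraries (replicates 1 and 2), on summit pileups of 25 and 6 and of 20 and 5 fragments. Relative to depth, as summit pileup over mean fragments per 10 kb, the values were 0.404 and 0.147 with +Myf6+F/R/C and 0.471 and 0.164 with +Myf6, so replicate 1 was the higher in both treatments. The replicate 1 fold was above that of 95.3% of the peaks of the +Myf6+F/R/C list and 98.2% of the +Myf6 list, whereas the replicate 2 folds were above 15.3 and 10.9% of theirs. No H3K27me3 peak met the region.

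The other site of both treatments at Cacna1s lay near the window's start, at 135935573 to 135936044. Folds were 5.01 and 3.92 with +Myf6+F/R/C and 7.66 and 8.31 with +Myf6, on pileups of 16 and 10 and of 18 and 16 fragments. Summits were at 135935899 and 135935893 in +Myf6+F/R/C cells and at 135935661 and 135935680 in +Myf6 cells, so the pairs of summits stood apart by treatment at this region. How often summits separate in this way at other regions was not counted, and a shift with the compounds was not tested. The H3K27me3 peak there had its summit at 135935637 and a fold of 12.3, higher than 99.2% of the peaks in its list. Relative to depth the region gave 0.258 and 0.244 with +Myf6+F/R/C and 0.424 and 0.524 with +Myf6, which did not overlap. The difference in mean was -0.223 (exact permutation p = 0.333, the smallest that 2 against 2 allows).

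A site of +Myf6+F/R/C lay next to the inner part of the Cacna1s window, at 135979226 to 135979516. Its centre was 0.629 kb outside the edge on the side of the gene's start. Its folds were 3.74 and 6.45 in +Myf6+F/R/C cells and 4.74 in +Myf6 replicate 1, with no peak in +Myf6 replicate 2. Pileups were 9 and 12 fragments with +Myf6+F/R/C and 9 in +Myf6 replicate 1. If the inner part holds the whole gene, the gene's start lies within 0.983 kb inside this edge, and the region lay before it. The start itself was not located in GRCm39. The fourth site, of +Myf6, began at 136097653 and reached past the window's end, with folds of 5.35 and 5.36 on 8 and 7 fragments; the +Myf6+F/R/C replicate 1 list had a peak of the same region beyond the window. A further 2 regions had a peak in 1 library of each treatment, with folds between 4.09 and 5.14. The other 5 regions were in 1 list each, and no Cacna1s region had a control peak.

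At Ryr1, the release channel, the region with the highest mean rank of fold within its lists was a site of both treatments at 28823119 to 28823851 on chromosome 7. Folds were 9.10 and 5.46 with +Myf6+F/R/C and 6.58 and 8.80 with +Myf6, on pileups of 36 and 13 and of 15 and 17 fragments. These folds were above 97.4 and 62.4% of the peaks of the +Myf6+F/R/C lists and above 82.1 and 97.4% of those of the +Myf6 lists. Relative to depth the values were 0.581 and 0.318 with +Myf6+F/R/C and 0.354 and 0.556 with +Myf6, which overlapped. The region lay in the inner part with its centre 1.52 kb from the edge on the side of the gene's start, and an H3K27me3 peak of fold 6.88 overlapped its right part, with its summit at 28824408, beyond every HA summit.

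The second Ryr1 site of both treatments lay at 28671067 to 28671806, in the flank beyond the gene's end, the side on which Map4k1 is the nearest neighbour. Folds were 6.65 and 3.91 with +Myf6+F/R/C and 6.13 and 6.09 with +Myf6, on 35 and 15 and on 23 and 20 fragments. The 4 summits spanned 73 bp. A neighbouring region at 28669248 to 28669644 was a site of +Myf6, with folds of 4.97 and 5.80 on 19 and 19 fragments, and had a peak of fold 5.23 on 28 fragments in +Myf6+F/R/C replicate 1. The expected pileup at both regions was 2.45 to 4.54 fragments, and neither had an H3K27me3 or a control peak.

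Within the inner part of the Ryr1 window, 2 more regions were sites of +Myf6. At 28738929 to 28739460 the folds were 7.23 in +Myf6+F/R/C replicate 1 and 4.69 and 4.77 in the +Myf6 libraries, on 15 and on 8 and 7 fragments, and an H3K27me3 peak of fold 7.55 overlapped. At 28760746 to 28761060 the +Myf6 folds were 5.26 and 6.03 on 9 and 8 fragments. A peak of +Myf6+F/R/C replicate 2 (fold 5.28, 8 fragments) began 8 bp farther on and counted as a region of its own, so that site's assignment to +Myf6 alone depends on where intervals touch. This adjoining region was named after its values were seen. The remaining site of +Myf6+F/R/C lay at 28869118 to 28869451, with folds of 4.33 and 6.54 on 13 and 15 fragments, inside an H3K27me3 peak of fold 4.25.

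Control peaks met 2 of the Ryr1 regions with induced peaks. At 28724873 to 28725552 the induced peaks had folds of 4.19 and 6.42 in +Myf6+F/R/C replicate 1, which held 2 separate peaks, and 5.46 in +Myf6 replicate 1. Uninduced HA replicate 2 had a peak of fold 4.72 there and uninduced IgG replicate 2 a peak of fold 4.96, each on 5 fragments, and an H3K27me3 peak of fold 3.69 overlapped. At 28681478 to 28681872 the HA peaks had folds of 5.81 in +Myf6+F/R/C replicate 2 and 5.17 in +Myf6 replicate 2, and IgG +Myf6 replicate 2 had a peak of fold 4.84 on 5 fragments, with an H3K27me3 peak of fold 4.99. One more control peak, of IgG +Myf6+F/R/C replicate 2, lay at 28791025 to 28791190 with no HA peak. All 4 of these control peaks rested on 5 fragments, while the lowest summit pileup called anywhere was 3 to 5 fragments in the 8 control lists.

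At Atp2a1, the calcium pump, the region with the highest mean rank of fold was in all 4 induced lists at 126064553 to 126065191 on chromosome 7. Folds were 6.08 and 5.71 with +Myf6+F/R/C and 6.04 and 6.68 with +Myf6, on 34 and 22 and on 20 and 16 fragments, and the 4 summits spanned 53 bp. Uninduced HA replicate 2 also had a peak there, with a fold of 5.95 on 7 fragments, so the region counted as a site of neither treatment. Relative to depth the pileups were 0.549 and 0.538 with +Myf6+F/R/C and 0.471 and 0.524 with +Myf6. The groups did not overlap, by a difference in mean of 0.0458 (exact permutation p = 0.333, the smallest possible with n = 2 each). The region straddled the edge of the inner part on the side of the gene's start, whose position is uncertain by 2.75 kb, and had no H3K27me3 peak.

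A neighbouring region at 126063357 to 126063704 was the only site of +Myf6 in the Atp2a1 window. Its centre was 1.47 kb inside the same edge, so it also lay within the 2.75 kb of uncertainty. Folds were 3.45 in +Myf6+F/R/C replicate 1 and 4.56 and 4.60 in the +Myf6 libraries, on 19 and on 15 and 11 fragments. The 2 sites of +Myf6+F/R/C lay outside the inner part. At 126073485 to 126073998 the folds were 3.35 and 5.01 with +Myf6+F/R/C and 6.09 in +Myf6 replicate 1, and at 126027975 to 126028168 they were 4.88 and 4.92 with +Myf6+F/R/C alone, on 9 fragments each. Both lay inside H3K27me3 peaks, of fold 6.05 and 9.13. The other 5 Atp2a1 regions were in a single induced list, 3 of them in +Myf6+F/R/C replicate 1.

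**Figure D3:**
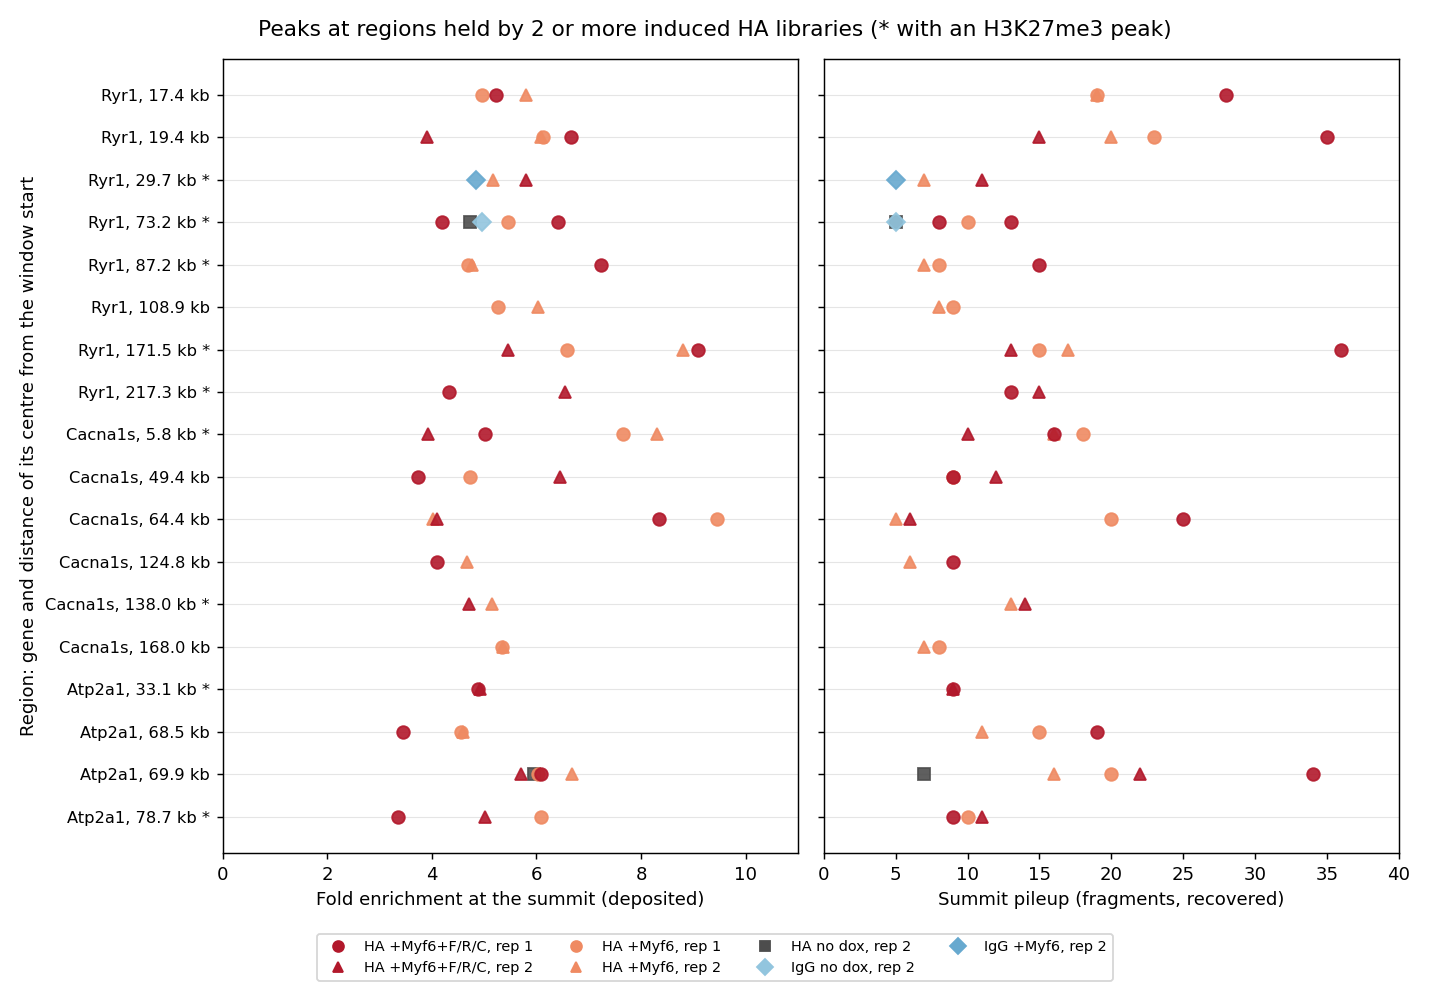
Deposited fold enrichment (left) and recovered summit pileup in fragments (right) of each peak inside the windows at the 18 regions held by 2 or more induced HA libraries; rows are regions, named by the distance of their centre from the window's start, and symbols are libraries. Pileups of +Myf6+F/R/C replicate 1, the deepest library, reach 36 fragments, while control peaks stand at 5 to 7.

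Over the 5 regions in all 4 induced lists, the mean pileup relative to depth was lower with +Myf6+F/R/C than with +Myf6 at 4 and higher at 1. Over all 10625 such regions of the genome it was lower at 58.4%. The values of the groups did not overlap at 2 of the 5, in opposite directions, and at 36% of the 10625. This scale was chosen after the data were seen, and no difference on it could pass 0.05.

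H3K27me3 was found in all 3 windows. The single library had 4 peaks over 4032 bp in the Cacna1s window (2.40% of its length), 9 peaks over 10695 bp in the Ryr1 window (4.80%) and 8 peaks over 9347 bp in the Atp2a1 window (7.79%). The inner part of the Cacna1s window had 0 of them, that of Ryr1 3 and that of Atp2a1 1. Stretches as long as these windows held a median of 2, 2 and 1 H3K27me3 peaks. All are narrow peaks, so their lengths need not give the full extent of the mark. Fold is a ratio to the local background and can be low where many fragments lie. The Ryr1 peak at 28658939 to 28661641 had a fold of 3.73 on 90 fragments, with 23.4 expected. The strongest H3K27me3 peak by fold within each window was the one near the start of the Cacna1s window described above, one of fold 10.0 at 28854833 to 28855808 in the Ryr1 window and one of fold 9.91 at 125995124 to 125996260 in the Atp2a1 window. A second Cacna1s peak, at 136067673 to 136068443, was stronger than those at Ryr1 and Atp2a1, with a fold of 11.4. Each of these 4 peaks had an HA peak of at least 1 induced list on it. Of the 21 H3K27me3 peaks, 13 met an induced HA peak (61.9%, against 51.7% of all 32981). In the opposite direction, 6 of 13 sites of either treatment met an H3K27me3 peak (46.2%, against 31.2% of all such sites), as did 14 of 33 regions with an induced HA peak (42.4%, against 26.7%). With 1 library in 1 treatment, no change of the mark with induction or with the compounds can be seen in these data.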

How the data were processed

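The authors deposited a list of narrow peaks for each library, so replicates were not pooled. Per the submitters' processing notes, the tools were MACS2, deepTools and DiffBind, with no roles given, and the build GRCm39; versions are not named, and aligner and filters were not given in the sources used here. The lists hold a deposited fold enrichment (a ratio to the local background), a deposited −log10 p and −log10 q at the summit, and a deposited score that is 10 times the −log10 q, cut to a whole number. These values describe, rank and filter peaks within their own list. Peaks on chromosomes 1 to 19, X and Y were used.

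From the deposited values, the summit pileup k (a whole number) and its expectation λ were solved from fold = (k + 1)/(λ + 1) and the Poisson tail of k, to within 0.002 of the deposited −log10 p in 99.9% or more of each list's peaks. The recovery and the exact tests were checked on simulated data. Depth is the lowest λ scaled from the narrowest peak width to 10 kb. Peaks per list were compared with two-sided exact permutation tests (Python 3.11.15, scipy 1.17.1), and Benjamini-Hochberg adjustment ran over the 3 windows and the 100 kb bins with a peak. Per the labels' protocols, nuclei of 1 preparation were divided between the HA and IgG antibodies, which pairs them. Over 18443 bins their replicate differences correlated with r = 0.0081 (+Myf6) and r = 0.011 (+Myf6+F/R/C). Exact sign flips over these 4 pairs gave p = 0.125, the smallest they can give, and changed no call.

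Members, lists and tests were chosen with earlier results of these data known. Named regions were those with a peak in both HA lists of a treatment, those with a control peak and the H3K27me3 peaks on them or strongest by fold. The scale of pileup over depth and bins as long as the window were added after the data were seen. The planned windows around the 29 other pathway genes, the likeness between genes and the gene bodies were not analysed here, because no gene positions of GRCm39 were used; the inner part of each window stands in for the gene body. The alternatives were other thresholds, windows, controls, overlaps, depths and libraries.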

Additional observations from a re-analysis of the deposited data

How the results depend on the processing

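The excess of induced HA over IgG peaks kept its direction at all 3 genes under every alternative run. No gene passed 0.05 in the main run, so a weaker alternative could not change the call, and only the length of the bins did. The size of the excess did change: at Cacna1s, Ryr1 and Atp2a1 the difference was 1, 3.25 and 1.75 peaks in the inner part, 1.5, 4 and 1.5 at −log10 q of 5 or more, and 1, 1 and 0.25 at 10 or more. At 10 or more the unadjusted exact permutation p was 0.143 at Cacna1s and 0.429 at Ryr1, and it was not under 0.05 at Atp2a1. After thinning to the depth of IgG it was 0.0857 at Ryr1 and stayed at 0.0286 at the other genes. Bins as long as the window were an alternative added after the data were seen. With them the adjusted p was 0.0431 at Ryr1 (difference 6.5 peaks) and 0.0465 at Cacna1s (5.5), past 0.05, and 0.0517 at Atp2a1 (4.25). The unadjusted exact permutation p stayed at 0.0286 for each gene, the smallest possible. The adjusted values thus differ only by the share of bins at that p, and the change of call is no result about these genes. The difference was 5.33 to 5.67 peaks at Cacna1s, 5.83 to 7.17 at Ryr1 and 3.33 to 4.67 at Atp2a1 without any 1 library (permutation p = 0.0571, the smallest possible). Of the genome-wide features, 6126 of 9237 (Ryr1 length), 7169 of 11658 (Cacna1s length) and 0 of 15191 (Atp2a1 length) were called with bins as long as the window, and 0 with 100 kb bins. With the replicate block (HA and IgG of the same nuclei) the difference was 5.5, 6.5 and 4.25. Against uninduced cells, the replicate block gave the differences of the unpaired test, 5.5, 6.5 and 3 peaks for +Myf6 and 5.5, 6.5 and 4.5 for +Myf6+F/R/C, and exact sign flips of 2 pairs gave p = 0.5. Replicate numbers of the induced HA groups share a prefix in the library names and their differences correlated over bins (r = 0.184), but 2 pairs do not establish a pairing. At Atp2a1, +Myf6+F/R/C minus +Myf6 was 1.5 peaks with the block and 0.675 after thinning to equal depth. It reversed to -0.5 in the inner part and to -0.5 without +Myf6+F/R/C replicate 1, in a range of -0.5 to 3.5 without any 1 library; the cause was not tested. At Cacna1s and Ryr1 thinning gave -1.1 and -0.375 peaks.

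The 8 sites of +Myf6+F/R/C became 2 at −log10 q of at least 5 (all sites 7538, against 15089), 2 in the inner part, and 12 to 19 when 1 HA list sufficed (27444 to 33715). The 9 sites of +Myf6 became 5 at −log10 q of at least 5 (all sites 5007, against 12587), 5 in the inner part, 5 where a peak had to cover at least 0.5 of the region (7651), and 13 to 15 with 1 HA list (24092 to 30508). With IgG lists as the only controls there were 9 sites of +Myf6+F/R/C (17864) and 10 of +Myf6 (15072). Depth limits which weak peaks a control library could call, and the IgG libraries were the shallowest.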
